A study of Rattus norvegicus with 6 samples.

Results

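The genes described here encode the proteasome, the barrel-shaped protease that degrades ubiquitin-tagged proteins, and its regulators, as measured in replicating and quiescent rat β-cells. Members were all genes whose symbol on the array begins with Psma, Psmb, Psmc, Psmd, Psme, Psmf or Psmg followed by a digit. Of 27100 genes with a symbol, 50 met that rule, and they were read by 57 probes on 118 spots. By textbook role they comprised 8 α-ring subunits, 7 constitutive, 3 inducible and 1 thymic β-ring subunit of the 20S core, 9 base and 8 lid subunits of the 19S cap, 4 activators, 1 inhibitor, 6 assembly chaperones and 2 copies named for a subunit. The last, Psmc3ip, encodes a partner protein of meiotic recombination that shares the prefix and is no proteasome component.

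Islets came from young adult male Wistar rats in 3 preparations, each a pool of 4 rats, and were cultured with the thymidine analogue EdU, which is built into newly made DNA. After fixation, large granular cells stained by Newport Green, a zinc-binding dye that marks β-cells, were sorted into an EdU-positive fraction (replicating β-cells) and an EdU-negative fraction (quiescent β-cells) of the same preparation. Neither fraction carried a transgene or received another treatment according to the sources used here, and EdU label records DNA synthesis during the culture, so a labelled cell need not have been dividing at the sort. The 6 fractions were hybridised to 6 one-colour arrays of 1 slide, and the preparation is the replicate (n = 3).

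The 26S proteasome joins a 20S core to 19S caps. Stacked rings of α-subunits gate the core, the β-rings inside hold the proteolytic sites, the 19S lid removes ubiquitin from substrates, and the ATPases of the 19S base unfold them. In dividing cells this machine destroys cyclins and replication regulators, and in endocrine cells it also clears misfolded proteins exported from the endoplasmic reticulum.

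Quiescent array 2 stood apart: its Pearson correlation with the other arrays was 0.654 to 0.830 over all probes, and over the member genes 0.683 to 0.788. It had 1583 spots marked as outliers against 252 to 299 on each of the others. Quiescent array 1 was also set off over all probes, with correlations of 0.867 to 0.887 with the 3 replicating arrays and quiescent array 3. Those arrays correlated at 0.943 to 0.986 among themselves. Over the member genes, quiescent array 1 correlated with them at 0.934 to 0.952, within the 0.928 to 0.986 that they had among themselves. On quiescent arrays 1 and 2, 96.4% and 98.4% of probes were well above background, against 80.8% to 87.3% on the rest. All 5 replication genes fixed as a label check (Mki67, Top2a, Pcna, Cdk1 and Plk1) were higher in the replicating fraction of every preparation, with a median log2 ratio of 3.76. The 11 β-cell markers found on the array were well above background on all 6 arrays, and 7 of them had fitted ratios below 0 (median -0.56). Also well above background on all arrays were all 8 fibroblast and stellate, 5 acinar, 5 α-cell, 3 δ-cell and 4 endothelial markers. The same held for the 1 PP-cell marker, 6 of 7 immune markers and 2 of 3 duct markers. It also held for 21293 of the 27100 genes with 1 probe each, so that this measure alone does not show which cell types were present. The summed intensity of the fibroblast and stellate list was 14261 to 41224 in replicating and 5419 to 6354 in quiescent β-cells, and that of the 5 α-cell markers 21880 to 89271 against 5574 to 16678. The 7 immune markers summed to 7717 to 8338 and 3800 to 8885. Sums of the 5 acinar markers differed most between preparations, at 7289 to 80048 in replicating and 3452 to 41626 in quiescent β-cells. In both fractions the acinar sum was lowest in preparation 1 and highest in preparation 2. No list had a marker below background on every array. The part of these other cell types in the proteasome values was not tested, and with bulk RNA fewer cells of a type and less RNA per cell cannot be told apart.

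All 50 members were well above background on all 6 arrays, as were 21293 of the 27100 genes with 1 probe each. Values are deposited log2 intensities after normalization between arrays, a ratio is the replicating minus the quiescent value of the same preparation on that log2 scale, and each gene is read from its brightest probe, so that levels are not compared between genes. Limma's test with preparation as a block, adjusted over all 45598 probes, called no member at an adjusted p under 0.05, where it called 0% of all probes, and the smallest adjusted p of a member was 0.475. At an unadjusted p of at most 0.05, 7 members were higher and 2 were lower in replicating β-cells. Over all genes with 1 probe each, the same threshold took 4.77% as higher and 5.15% as lower, against 14.0% and 4.00% of the members. Each of these 9 members had an adjusted p = 0.475 by limma. Every p-value below is from limma's two-sided moderated test, unadjusted, and an exact sign permutation over 3 preparations could not go below 0.250 for 1 gene, so that "higher" and "lower" describe measured levels that did not survive the adjustment.

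**Figure D1:**
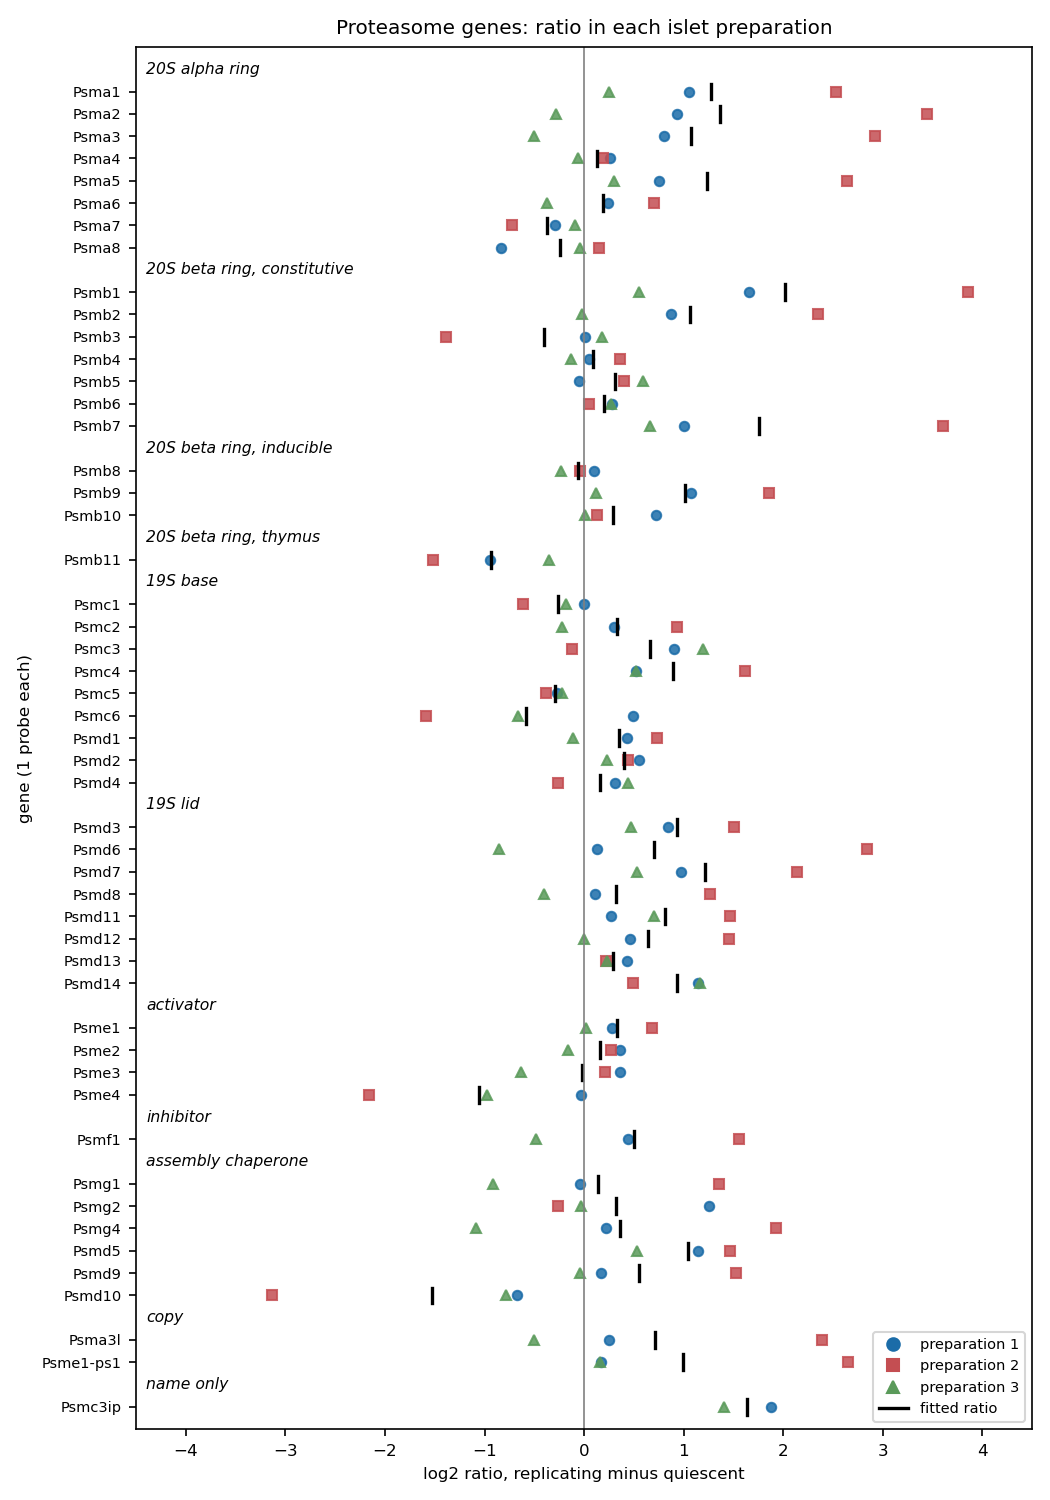
Log2 ratio of replicating over quiescent β-cells for each of the 50 genes, grouped by role, with 1 point for each islet preparation and a bar at the fitted ratio of limma. The points of preparation 2 reach from -3.14 (Psmd10) to 3.85 (Psmb1), while those of preparation 3 stay between -1.08 and 1.41.

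The 5 called members whose groups did not overlap are read by these probes, shown because the value of a gene on this array is the value of 60 bases of its transcript. They are given 5′ to 3′ as the files hold them.
Psmb1: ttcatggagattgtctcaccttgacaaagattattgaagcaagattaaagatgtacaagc
Psmb7: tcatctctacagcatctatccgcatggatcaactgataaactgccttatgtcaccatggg
Psmd3: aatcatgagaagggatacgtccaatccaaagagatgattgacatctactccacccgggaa
Psmd7: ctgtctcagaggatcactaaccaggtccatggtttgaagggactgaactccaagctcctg
Psmd10: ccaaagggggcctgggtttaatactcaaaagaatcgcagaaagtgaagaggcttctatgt
On the rat build rn4, which the files name, the Psmb1 probe maps to chr1:54381876-54384490 and the Psmb7 probe to chr3:18413231-18433105, both on the minus strand and over intervals of 2615 and 19875 bases. The Psmd7 probe lies at chr19:37452992-37453051, also on the minus strand, and the Psmd3 probe at chr10:87466177-87466236 on the plus strand. The files give no position for the Psmd10 probe, and they do not name the exon of any.

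In the 20S core, the largest differences lay in a few subunits of both rings, while others of the same rings had ratios near 0. Psmb1, a structural β-subunit, had log2 values of 10.25, 10.11 and 9.98 in replicating β-cells of preparations 1 to 3 and of 8.59, 6.26 and 9.43 in quiescent β-cells. The groups did not overlap, and the lowest of the 6 values was on quiescent array 2. Its log2 ratio was 2.02 ± 0.68 (SE), a 4.06-fold difference with an unadjusted p = 0.0293, and without preparation 2 it was 1.10. Psmb7, the catalytic subunit with trypsin-like activity, stood at 10.40, 10.65 and 10.83 in replicating and at 9.40, 7.05 and 10.17 in quiescent β-cells, again with no overlap and with quiescent array 2 lowest. The ratio was 1.75 ± 0.65 (SE), with an unadjusted p = 0.0422.

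The other catalytic subunits did not follow Psmb7. Psmb5, which has the chymotrypsin-like activity, measured 10.78, 10.06 and 11.05 in replicating and 10.84, 9.66 and 10.45 in quiescent β-cells, so that the groups overlapped (ratio 0.31 ± 0.32 SE). For Psmb6, the caspase-like subunit, values of 13.81, 13.85 and 14.11 stood against 13.52, 13.80 and 13.84, and the ratio was 0.20 ± 0.31 (SE). The 3 catalytic genes thus gave ratios of 0.20 to 1.75 for proteins that enter each core in equal number, and in preparation 2 alone their ratios were 0.40, 0.050 and 3.60.

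Interferon-inducible counterparts replace the catalytic subunits in the immunoproteasome, the form that favours peptides for antigen presentation. Psmb9 had values of 10.59, 11.06 and 11.19 in replicating against 9.52, 9.20 and 11.07 in quiescent β-cells, overlapping in quiescent array 3, with a ratio of 1.02 ± 0.43 (SE) and unadjusted p = 0.0644. Psmb8 gave 11.12, 11.48 and 11.49 against 11.02, 11.53 and 11.72 (ratio -0.060 ± 0.31 SE), and Psmb10 gave 13.05, 13.98 and 13.11 against 12.33, 13.85 and 13.10 (ratio 0.29 ± 0.33 SE). None of the 3 passed, and each of their groups overlapped. All 7 immune markers had fitted ratios above 0 in the same arrays, and their part in these values was not tested.

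Psmb11, the β-subunit known from cortical thymus epithelium, was the 1 core member lower at the unadjusted p. Its replicating values were 10.53, 11.07 and 10.20 and its quiescent values 11.48, 12.59 and 10.55, which overlapped, with a lower value in the replicating fraction of every preparation (ratio -0.94 ± 0.37 SE, unadjusted p = 0.0498). The array carries a second Psmb11 probe, and the pair did not read alike. That dimmer probe, with values of 6.78 to 7.19 on the 5 arrays where its spot was kept, had a ratio of -0.10 ± 0.43 (SE). The 2 probes start 1670 bases apart on rn4, the brighter at chr15:32705019-32705078 and the dimmer at chr15:32703349-32703408, both on the plus strand. In the brighter one a 4-base unit repeats 3 times or more near the 3′ end, set in capitals.
Psmb11, brighter probe: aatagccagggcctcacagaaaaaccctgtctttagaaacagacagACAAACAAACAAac
Psmb11, dimmer probe: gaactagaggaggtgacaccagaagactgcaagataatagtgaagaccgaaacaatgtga
Neither shares a run of 20 bases with a probe of another gene name. Whether the brighter probe reads Psmb11 mRNA was not tested.

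Among α-ring subunits, which form the gated outer rings, Psma2 had the largest ratio. Its values were 10.33, 10.06 and 10.65 in replicating and 9.40, 6.61 and 10.93 in quiescent β-cells, and the ratio of 1.36 ± 0.75 (SE) came from preparations 1 and 2, since in preparation 3 it was -0.28. Psma1, Psma3 and Psma5 had ratios of 1.28, 1.07 and 1.23, and of these Psma5 alone separated the groups. The other ratios were 0.19 for Psma6, 0.13 for Psma4, -0.24 for Psma8, the testis α-subunit, and -0.37 for Psma7. Psma7 measured 10.73, 10.35 and 10.23 against 11.02, 11.07 and 10.32, lower in the replicating fraction of each preparation by 0.090 to 0.72. Its dimmer probe, with nearly the same mean (10.60 against 10.62), gave ratios of -0.13, -0.51 and 0.35 in preparations 1 to 3. The fitted ratio of that probe was -0.095, so the direction in preparation 3 depends on the probe. No α-ring subunit passed. In the remaining constitutive β-ring, Psmb2 and Psmb4 had ratios of 1.07 and 0.094, and Psmb3 measured 9.64, 9.33 and 10.05 against 9.63, 10.71 and 9.86 (ratio -0.40 ± 0.43 SE). Quiescent array 2 was here the highest of the 6, where for Psma2 it was the lowest.

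The 19S cap held 3 of the 7 members that were higher, and all 3 belong to the lid. Psmd7, a scaffold of the lid and the partner of the deubiquitinase Psmd14, measured 11.28, 10.98 and 11.06 in replicating and 10.31, 8.84 and 10.53 in quiescent β-cells without overlap (ratio 1.22 ± 0.42 SE, unadjusted p = 0.0341). Psmd3, another lid scaffold, gave 10.98, 11.04 and 11.14 against 10.14, 9.53 and 10.68, again apart (0.94 ± 0.36 SE, unadjusted p = 0.0451). Psmd14, the metalloprotease that cuts ubiquitin chains from substrates, stood at 8.82, 7.18 and 8.94 against 7.67, 6.69 and 7.77. Those groups overlapped, with both fractions of preparation 2 low, and the differences within preparations were 1.14, 0.49 and 1.17 (ratio 0.93 ± 0.33 SE, unadjusted p = 0.0361). For Psmd14 the ratio was 1.15 without preparation 2, where those of Psmd7 and Psmd3 were 0.75 and 0.65.

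All 8 lid subunits had ratios above 0, with a median of 0.76. The others were Psmd11 (0.81), Psmd6 (0.70), Psmd12 (0.64), Psmd8 (0.33) and Psmd13 (0.29), and of these Psmd11 alone had groups that did not overlap. The groups of its dimmer probe did overlap, with a fitted ratio of 0.71 and a ratio of -0.21 in preparation 3. Psmd6 and Psmd8 had ratios below 0 without preparation 2 (-0.36 and -0.15), and Psmd8 and Psmd13 had ratios below 0 when arrays were scaled to their 75th percentile in place of quantile normalization (-0.16 and -0.24).

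The base is the part of the cap that contacts the core. Its 9 members, the ATPases Psmc1 to Psmc6 and the scaffolds and ubiquitin receptors Psmd1, Psmd2 and Psmd4, had a median ratio of 0.33 with 6 above 0, and none passed. The ATPases form 1 hexameric ring, yet 3 of the 6 had ratios above 0 (Psmc4 0.89, Psmc3 0.66 and Psmc2 0.33) and 3 had ratios below 0. Psmc6 measured 7.94, 7.37 and 7.91 in replicating and 7.44, 8.97 and 8.57 in quiescent β-cells, for a ratio of -0.59 ± 0.48 (SE). Psmc5 gave 13.78, 13.67 and 14.26 against 14.05, 14.05 and 14.49, lower by 0.23 to 0.38 in each preparation (ratio -0.29 ± 0.30 SE). Psmc1 gave 12.65, 12.79 and 13.12 against 12.66, 13.40 and 13.31 (ratio -0.27 ± 0.32 SE). All of these groups overlapped. Psmd2, Psmd1 and Psmd4 had ratios of 0.41, 0.35 and 0.16, and the groups of Psmd2 and Psmc4 did not overlap.

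Activators dock to the ends of the core in place of the cap. Psme1 and Psme2, which together form the interferon-inducible PA28αβ ring, varied little. The values of Psme1 were 12.31, 12.21 and 12.40 in replicating and 12.02, 11.53 and 12.38 in quiescent β-cells (ratio 0.33 ± 0.32 SE), and those of Psme2 were 12.51, 12.50 and 12.65 against 12.15, 12.23 and 12.81 (ratio 0.16 ± 0.32 SE). Psme3, the nuclear activator PA28γ, gave 12.39, 12.32 and 12.37 against 12.03, 12.10 and 13.00, a ratio of -0.020 ± 0.36 (SE). Psme4, the nuclear activator PA200, was low in all replicating arrays at 9.86, 9.61 and 9.64 and stood at 9.90, 11.77 and 10.61 in quiescent β-cells. Its groups did not overlap, but the gap in preparation 1 was 0.034, and the ratio of -1.05 ± 0.49 (SE) did not pass (unadjusted p = 0.0812). Psmf1, the inhibitor PI31, measured 11.13, 10.88 and 11.25 against 10.69, 9.33 and 11.73 (ratio 0.50 ± 0.47 SE) and was near 0 without preparation 2, at -0.021.

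**Figure D2:**
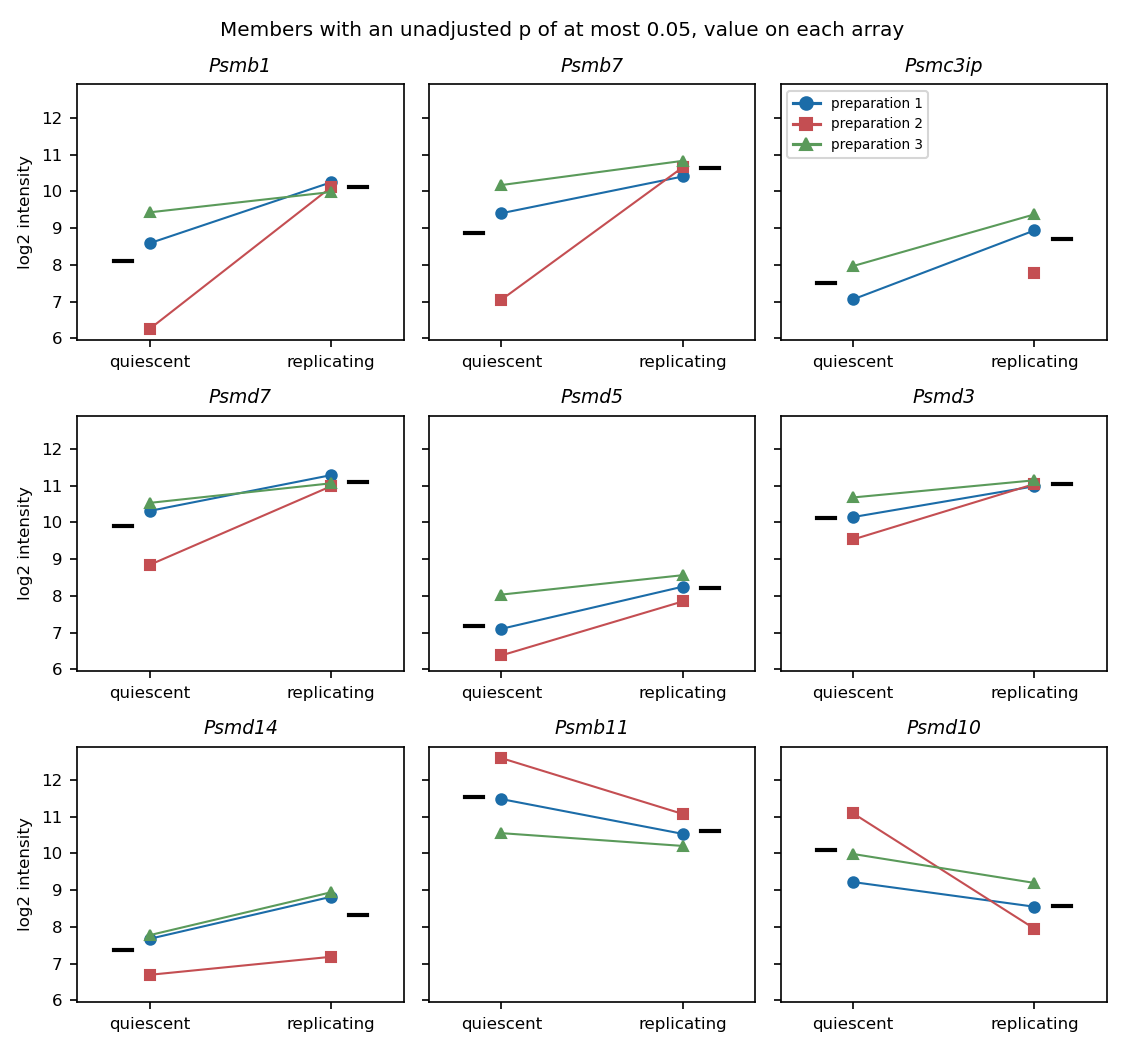
Log2 intensity on each array of the 9 members with an unadjusted p of at most 0.05, with a line joining the fractions of 1 preparation and short bars at the group means. Quiescent array 2 is the lowest value of Psmb1, Psmb7, Psmd7, Psmd5, Psmd3 and Psmd14 and the highest of Psmb11 and Psmd10, and its Psmc3ip spot was marked as an outlier and is missing.

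The assembly chaperones hold subunits during building and leave the finished particle. Psmd5, a chaperone of the base, measured 8.25, 7.85 and 8.56 in replicating and 7.10, 6.38 and 8.03 in quiescent β-cells (ratio 1.05 ± 0.35 SE, unadjusted p = 0.0283). Its groups overlapped, as quiescent array 3 lay above replicating array 2, and every preparation had the higher value in replicating β-cells. Psmd10, a base chaperone also known as gankyrin, went the other way, with 8.55, 7.95 and 9.19 against 9.22, 11.09 and 9.98 and no overlap (ratio -1.53 ± 0.58 SE, unadjusted p = 0.0456). Preparation 2 alone gave -3.14, and without it the ratio was -0.73. The remaining chaperones Psmd9, Psmg4, Psmg2 and Psmg1 had ratios of 0.55, 0.36, 0.32 and 0.14, none of which passed.

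Psmc3ip had the smallest p of all 50 members and is the one that is no part of the proteasome. Its values were 8.94, 7.78 and 9.37 in replicating and 7.06 and 7.97 in quiescent β-cells, with the spot on quiescent array 2 set to missing as an outlier. The ratio was 1.64 ± 0.43 (SE) with an unadjusted p = 0.0172, and with the marked spot kept it was 0.82 with an unadjusted p = 0.230. Without this gene and the 2 copies, 6 of 47 subunits and regulators were higher and 2 were lower. The copies, Psma3l and Psme1-ps1, had ratios of 0.71 and 0.99 and did not pass. The Psma3l probe starts 1059 bases from the Psma3 probe on chromosome 6 of rn4, and the values of such near copies are uncertain.

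Set side by side, the 20S core and 19S cap had similar middles and the activators a lower one. The median ratio was 0.29 for the 19 core members, 0.41 for the 17 cap members and 0.069 for the 4 activators, beside -0.13 over all genes. Ratios above 0 were found for 14 of 19, 14 of 17 and 2 of 4 genes, or 73.7%, 82.4% and 50%, against 42.0% of all genes. At the unadjusted p, the core had 2 higher and 1 lower, the cap 3 higher and 0 lower, and the activators 0 of either, where all genes gave 4.77% and 5.15%. The core shares were 10.5% higher and 5.26% lower and the cap share 17.6% higher, and the lower share of the core is near that of all genes. In preparations 1, 2 and 3 the medians were 0.28, 0.40 and -0.022 for the core, 0.43, 0.73 and 0.23 for the cap, and 0.32, 0.24 and -0.40 for the activators. Without Psma8 and Psmb11, subunits known from testis and thymus, the core medians were 0.72, 0.70 and 0.0090, so that the core median of preparation 3 lay near 0 with either choice. The sign of the activator median turned without preparation 1 (-0.077) or preparation 2 (-0.018). These medians share their arrays and were not tested against each other.

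**Figure D3:**
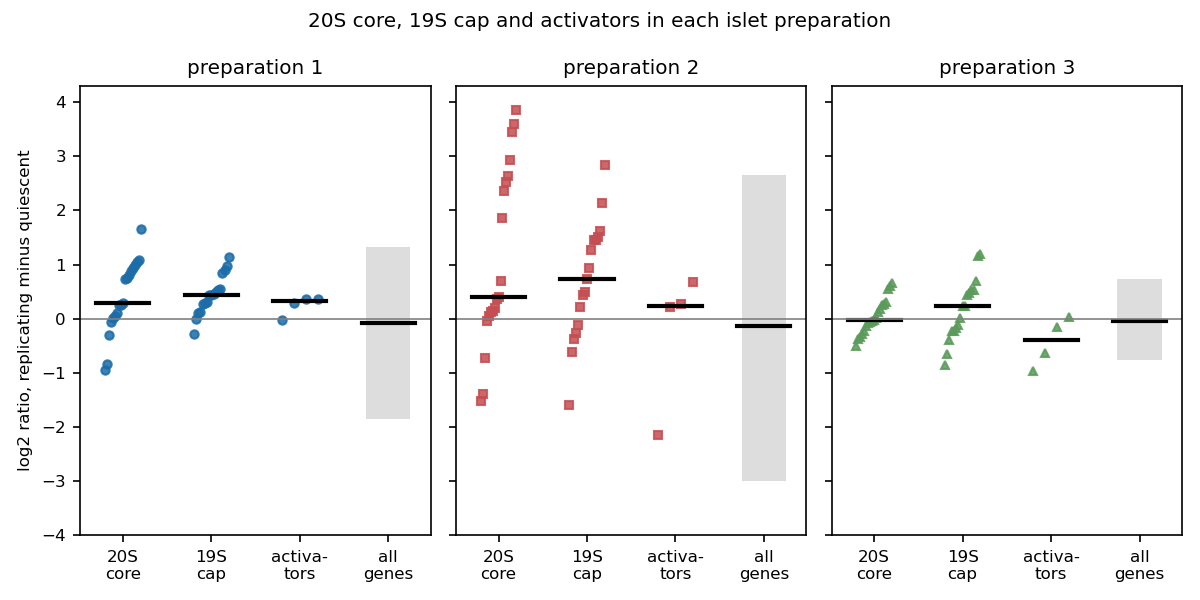
Log2 ratio of each 20S core, 19S cap and activator gene in the 3 islet preparations, with a bar at the median of each group, beside the 5th to 95th percentile (grey) and median of all genes. The core spreads from -1.52 to 3.85 in preparation 2 and from -0.51 to 0.66 in preparation 3.

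Other lists of housekeeping complexes moved by similar amounts. Mitochondrial ribosomal proteins (70 genes) had a median ratio of 0.41, translation initiation factors (53 genes) 0.55, and respiratory chain and ATP synthase genes (86 genes) 0.22. All 3 medians were highest in preparation 2 (0.87, 1.24 and 0.68) and below 0 in preparation 3 (-0.17, -0.24 and -0.16), and over the 50 members the corresponding medians were 0.70 and -0.036. Of the 3 lists, 4.29%, 11.3% and 5.81% were higher at the unadjusted p, beside 6 of 47 proteasome subunits and regulators (12.8%) without Psmc3ip and the copies. The member median lay within the range of these lists, and no difference between the lists was tested.

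The size of the differences depended on the preparation. The SD of the 50 member ratios was 0.56 in preparation 1, 1.51 in preparation 2 (49 genes) and 0.55 in preparation 3, beside 1.03, 1.63 and 0.51 over all genes. Ratios above 1 were found for 7, 22 and 3 members, or 14.0%, 44.9% and 6.00%, against 10.1%, 20.6% and 2.90% of all genes. Within the 20S core, whose subunits are built into 1 particle, the SD was 1.70 in preparation 2 and 0.33 in preparation 3. The quiescent SD exceeded the replicating SD for 46 of the 49 members with all 6 values, and the median SD over the members was 0.23 in replicating and 0.76 in quiescent β-cells, beside 0.21 and 0.66 over all genes. The lowest of a member's 6 values lay on quiescent array 2 for 30 of the 50 genes, and the highest for 8. Across the 49 genes the ratios of preparations 1 and 2 had a Pearson r of 0.584, those of 1 and 3 of 0.480 and those of 2 and 3 of 0.201, where all genes gave 0.634, 0.186 and 0.0263. These are correlations over genes that share arrays, and genes are not independent replicates.

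Groups that did not overlap were found for 8 members higher in replicating β-cells (Psma5, Psmb1, Psmb7, Psmc4, Psmd2, Psmd3, Psmd7 and Psmd11) and 2 lower (Psme4 and Psmd10), which is 10 of 49 genes with a value on every array. Those of the dimmer Psmd11 probe overlapped. Over all genes with 6 values, 8.44% did not overlap and were higher and 7.67% were lower. Of these 10 members, Psmd2, a scaffold of the base, had the most even ratios, at 0.55, 0.44 and 0.23, and its fitted ratio was 0.41 ± 0.31 (SE) with an unadjusted p = 0.243.

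For 7 members a second probe gave a check within the gene, and in preparation 2 the pair often read differently. The median absolute difference between the ratios of the brighter and the dimmer probe was 0.62 in preparation 1, 1.15 in preparation 2 (6 genes) and 0.44 in preparation 3. For Psmc1 it was largest, at 2.74 in preparation 2, where the brighter probe gave -0.61 and the dimmer 2.13. The fitted ratios of these 2 probes were -0.27 and 0.98, so the sign of Psmc1 depends on the probe. Both are printed, with a terminal run of 6 A in capitals, which 2 of the 57 member probes have.
Psmc1, brighter probe: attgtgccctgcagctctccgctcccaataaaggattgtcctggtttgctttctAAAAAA
Psmc1, dimmer probe: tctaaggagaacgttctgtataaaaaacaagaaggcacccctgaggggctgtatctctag
The other such probe is the brighter one of Psmb8, which the array's description assigns to a cDNA clone with an apparent retained intron. The Psmb8 pair gave ratios of -0.045 and -1.87 in preparation 2. No second probe of a member passed at the unadjusted p.

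**Figure D4:**
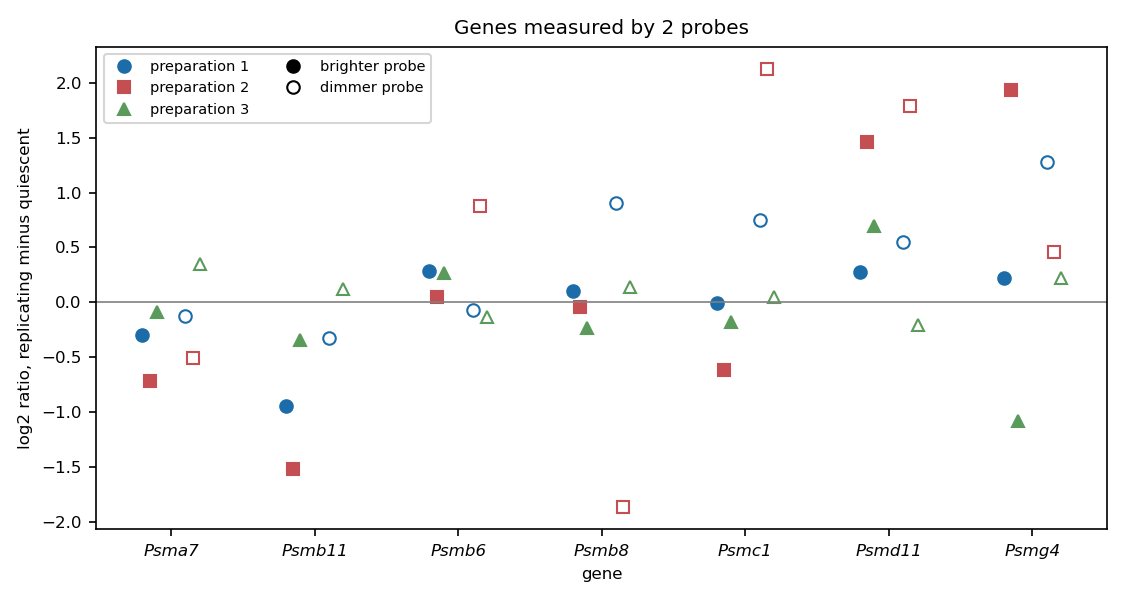
Log2 ratio in each islet preparation for the 7 genes read by 2 probes, with filled symbols for the brighter and open symbols for the dimmer probe. The symbols of Psmc1 in preparation 2 lie 2.74 apart, and the dimmer Psmb11 probe has no value there.

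Other genes of the ubiquitin-proteasome pathway, taken from a list of 35 that were found on the array, mostly had ratios above 0. Their median ratio was 0.67, with 32 of 35 above 0, and 7 (20%) were higher at the unadjusted p and 0 lower, against 4.77% higher, 5.15% lower and 42.0% above 0 over all genes. In preparation 3 the median was -0.13. Ubb, a polyubiquitin gene, had the smallest p of the list and the most even ratios. It measured 16.003, 15.76 and 15.97 in replicating and 14.93, 14.38 and 14.88 in quiescent β-cells, with no overlap (ratio 1.18 ± 0.31 SE, unadjusted p = 0.0115). Akirin2, which carries proteasomes into the nucleus, stood at 11.36, 11.75 and 10.78 against 9.80, 10.53 and 10.36 (ratio 1.07 ± 0.37 SE, unadjusted p = 0.0321).

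The other 5 were higher in every preparation too, with groups that did not overlap. Vcp, the p97 unfoldase that hands substrates to the proteasome, measured 9.71, 10.32 and 10.09 in replicating against 8.74, 7.07 and 9.52 in quiescent β-cells (ratio 1.59 ± 0.60 SE). Txnl1, a thioredoxin-like protein bound to the cap, gave 9.25, 9.04 and 9.20 against 7.63, 5.98 and 8.90 (1.66 ± 0.58 SE). Values of the ubiquitin shuttle Ubqln4 were 10.99, 11.27 and 11.04 against 10.32, 9.10 and 10.37 (1.17 ± 0.43 SE). In each of these 3 the quiescent array of preparation 2 was lowest, and the unadjusted p-values were 0.0437, 0.0342 and 0.0416. Of the antigen processing group, the interferon regulator Irf1 measured 12.71, 13.11 and 12.35 against 11.49, 9.68 and 12.00 (1.66 ± 0.65 SE). The peptide-loading protein Tapbp measured 11.66, 11.36 and 11.45 against 11.13, 9.92 and 10.696 (0.91 ± 0.35 SE). Their unadjusted p-values were 0.0481 and 0.0463, and quiescent array 2 was again the lowest for both genes.

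From the same list, Pomp, Adrm1, Usp14, Nfe2l1 and Nfe2l2 did not pass. Pomp, the maturation factor of the core, had 12.56, 12.45 and 12.45 in replicating and 11.88, 11.50 and 12.22 in quiescent β-cells, apart but with a ratio of 0.62 ± 0.33 (SE). The cap receptor Adrm1 gave 13.12, 12.88 and 12.91 against 12.65, 12.19 and 12.88 (0.39 ± 0.32 SE). Usp14, a deubiquitinase of the cap, gave 12.42, 11.98 and 12.31 against 11.79, 9.31 and 12.19 (1.14 ± 0.57 SE). In preparation 3 the ratios of Pomp, Adrm1 and Usp14 were 0.23, 0.023 and 0.12, the smallest of the 3 preparations for each. Nfe2l1, the factor known to drive proteasome genes when the proteasome is inhibited, measured 9.62, 9.02 and 9.67 against 9.004, 7.09 and 10.21 (0.67 ± 0.54 SE). Nfe2l2, the oxidative stress factor, measured 9.11, 8.17 and 8.62 against 7.70 and 8.97, with 1 spot missing (0.53 ± 0.60 SE). Both factors were higher in preparation 1 and lower in preparation 3.

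Promoter sequences of 43 of the 50 members were found in RefSeq on build GRCr8, each from 250 bases before to 50 after the start of the gene. Those of Psmb1, Psmb7 and Psmd7, higher members with a CCAAT box, and of the lower Psmd10 are printed as examples of opposite directions. Every CCAAT, on either strand (ATTGG on the printed one), and every TGACNNNGC is in capitals. All 4 lie on the minus strand, Psmb1 at chr1:65134721-65135020, Psmb7 at chr3:42827421-42827720, Psmd7 at chr19:52411267-52411566 and Psmd10 at chrX:109453556-109453855.
Psmb1: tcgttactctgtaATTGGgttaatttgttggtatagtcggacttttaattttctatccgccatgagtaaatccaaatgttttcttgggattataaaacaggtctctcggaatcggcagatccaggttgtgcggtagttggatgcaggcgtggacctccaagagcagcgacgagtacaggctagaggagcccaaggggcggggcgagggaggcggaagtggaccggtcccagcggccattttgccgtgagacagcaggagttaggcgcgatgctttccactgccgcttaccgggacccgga
Psmb7: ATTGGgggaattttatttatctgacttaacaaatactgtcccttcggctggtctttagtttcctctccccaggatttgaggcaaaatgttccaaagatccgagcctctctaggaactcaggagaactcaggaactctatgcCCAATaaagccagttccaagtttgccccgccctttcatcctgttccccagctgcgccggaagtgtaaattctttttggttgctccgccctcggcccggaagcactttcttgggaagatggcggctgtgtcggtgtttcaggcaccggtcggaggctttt
Psmd7: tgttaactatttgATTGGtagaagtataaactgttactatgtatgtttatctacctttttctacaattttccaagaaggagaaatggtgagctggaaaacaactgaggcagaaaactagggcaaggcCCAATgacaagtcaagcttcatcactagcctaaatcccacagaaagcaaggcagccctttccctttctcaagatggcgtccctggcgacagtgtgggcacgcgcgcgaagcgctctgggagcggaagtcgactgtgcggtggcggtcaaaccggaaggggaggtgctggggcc
Psmd10: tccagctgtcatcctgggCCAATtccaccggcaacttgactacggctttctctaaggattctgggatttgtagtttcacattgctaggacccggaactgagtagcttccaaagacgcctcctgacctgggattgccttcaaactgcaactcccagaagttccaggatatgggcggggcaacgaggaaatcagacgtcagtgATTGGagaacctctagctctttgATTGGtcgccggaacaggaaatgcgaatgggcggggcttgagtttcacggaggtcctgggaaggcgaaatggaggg
The CCAAT box was present in 21 of the 43 promoters (48.8%) and in 37.5% of all 33469 promoters. It was in 11 of 17 core promoters (64.7%), 5 of 14 cap promoters (35.7%) and 4 of the 6 available for members that were higher. These 4 were Psmb1, Psmb7, Psmd7 and Psmc3ip, which is no proteasome component. The promoters of Psmd3 and Psmd5, not printed, had none. TGACNNNGC, the core of the antioxidant response element, was in 8 of 43 (18.6%), against 12.1% of all, and in 1 of those 6, Psmd3. The cell cycle homology region TTTGAA was in 6 (14.0%) against 18.3%, and TTTGGCGC or TTTCGCGC, an E2F core, was in 1, that of Psmb9, against 0.8%. Both strands were searched, and a match is a run of letters in this window and no evidence of binding.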

How the data were processed

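Global gene expression was measured in 6 samples on Agilent rat arrays after whole transcriptome amplification of RNA from fixed cells. The authors read the spots with Feature Extraction 10.7.3.1, which gives an intensity and a local background that were deposited before any scaling of arrays to each other. Log2 values of the same spots, background-corrected with normexp and then quantile normalized, were deposited as well by the authors. These, which differed by at most 0.000245 from values computed here with normexp at an offset of 50, were used. Without control spots and outlier-marked spots, the mean of the spots of each probe was taken. Limma 3.58.1 in R 4.3.3 (data.table, version 1.17.8) fitted all 45598 probes with a block for islet preparation, the pairing named in the methods of the study. The deposited design text puts 1 sample of each fraction in each preparation, and the replicate number in the titles was taken as the preparation. Deviations of same-numbered arrays correlated at 0.0561, 0.242 and 0.258. P-values were adjusted by Benjamini-Hochberg over all probes, and the fit was tested on simulated data. Of the 50 probes used, 43 carried an accession with the same symbol in RefSeq and 7 had none there.

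Members, lists and rules were chosen with earlier results of these data known. Values on every array were given for members with an unadjusted p of at most 0.05, catalytic and inducible β-subunits, activators and inhibitor, the 3 largest and 3 smallest ratios of core and cap, and Psmc3ip, and of the pathway list for Adrm1, Pomp, Usp14, Nfe2l1, Nfe2l2 and those at that p. The 5 acinar, 3 duct, 4 endothelial, 3 δ-cell and 1 PP-cell markers had median ratios of 0.24, -0.52, 0.68, 1.49 and 1.21. The number of arrays limits the precision. Alternatives changed the background correction, scaling, dim-probe filter, outlier marks, block, variance trend, probe rule and replicates.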

Additional observations from a re-analysis of the deposited data

How the results depend on the processing

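No member passed the adjusted p under any alternative. With 75th percentile scaling of the normexp values, 719 of all probes passed it, and no member was among them. The 7 members higher and 2 lower at the unadjusted p became 4 and 1 with no replicate block, 3 and 1 with 75th percentile scaling of the normexp values, and 1 and 0 with the processed signal scaled that way. The count of lower members was 1 with an offset of 16, with only probes well above background, with outlier spots kept, with a variance trend and with the probes of each gene summarised by their median. Leaving out 1 preparation gave 0 to 11 higher (0 without preparation 1, 4 without preparation 2 and 11 without preparation 3) and 0 to 1 lower, and the activator median ranged from -0.077 to 0.30, with -0.077 and -0.018 where its sign turned. The median ratio of the members ranged from 0.16 without preparation 2 to 0.60 without preparation 3, that of the core from 0.16 to 0.43 and that of the cap from 0.33 to 0.61. The causes were not tested, beyond fewer samples where a preparation was left out.

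Psmb1 passed the unadjusted threshold in 11 of 12 alternatives and missed it without preparation 1 (unadjusted p = 0.0828 by limma). Percentile scaling moved the median of all genes from -0.13 to -0.44, and to -0.76 with the processed signal, while the member median was 0.37 and 0.40. The share of all genes higher and lower then went from 4.77% and 5.15% to 3.69% and 14.4%, and to 1.53% and 7.33%. In each of the 2 scalings 44 of 50 members kept the sign of their ratio. With 3 preparations, quiescent array 2 set off and quiescent array 1 set off over all probes, a ratio that misses the threshold does not show equal levels.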
